A study of Mus musculus with 11 samples.

Results

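Effector genes and secreted signals downstream of the stress transcription factor ATF4 were followed in 11 RNA sequencing libraries of mouse neural stem cells (NSCs). They were chosen by name: Trib3, Chac1, Asns, Nupr1, Gdf15, Fgf21, Cebpb, Atf3 and Atf5, which are 9 of the 53801 genes in each table. The cells were primary NSCs derived from the hippocampus of mouse embryos, and no allele or transgene is named in the labels. They were kept for 7 days in 1 µM of the compound abbreviated 4HBP or in its solvent, ethanol (EtOH), referred to here as vehicle. The labels spell the compound out as 4-Hydroxybenzoic acid, whereas the study names it 4-hydroxybenzophenone, and the abbreviation is used here. Proliferation medium was DMEM/F12 with 1% B27, 20 ng/ml EGF and 20 ng/ml bFGF, the growth factors that keep NSCs dividing. Differentiation medium had 2% B27 and neither growth factor. There were 3 libraries with 4HBP and 3 with vehicle in proliferation medium, and 3 with 4HBP and 2 with vehicle in differentiation medium.

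ATF4 is the transcription factor through which several stress sensing kinases act. PERK (encoded by Eif2ak3) senses unfolded protein in the endoplasmic reticulum, GCN2 senses a lack of amino acids, and each phosphorylates the translation factor eIF2, which lowers protein synthesis in general and raises translation of the ATF4 mRNA. ATF4 then pairs with C/EBP family proteins on a composite DNA site and activates genes of amino acid uptake and synthesis, feedback regulators and, when stress lasts, cell death genes such as Ddit3 (CHOP). Since ATF4 itself is regulated largely at translation, the RNA of its target genes is commonly used as a readout of the pathway.

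The genes followed here have different roles. Asns encodes asparagine synthetase. Trib3 encodes a pseudokinase that restrains ATF4 and CHOP. Chac1 encodes an enzyme that degrades glutathione, and Nupr1 a small stress induced chromatin protein. Cebpb, Atf3 and Atf5 encode basic leucine zipper transcription factors. Gdf15 and Fgf21 encode secreted hormones that signal stress to other tissues.

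The short DNA site TGATGNAA (or TTNCATCA when read on the other strand), which ATF4 binds together with C/EBP proteins, was searched in the RefSeq promoters of the genes on both strands. Each promoter spans 250 bases before to 50 bases after an annotated start (GRCm38.p6), and the 9 genes have 11 of them. The site was found in 6 of the 9 genes, and in 4.51% of the 27025 genes of the table (3.97% of its 32851 promoters). The 6 matches are given because the site is the one through which ATF4 is known to act on such genes. Each is read in the direction of the gene, with the site in capitals and the bases on either side in lower case.
Nupr1: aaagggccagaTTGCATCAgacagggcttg
Chac1: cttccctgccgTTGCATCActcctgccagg
Atf3: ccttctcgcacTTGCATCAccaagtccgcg
Fgf21: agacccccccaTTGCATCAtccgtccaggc
Asns: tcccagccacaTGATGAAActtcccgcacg
Trib3: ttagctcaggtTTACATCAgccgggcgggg
Nupr1, Chac1, Atf3 and Fgf21 hold the same 8 letters, TTGCATCA, which read TGATGCAA on the other strand, a subset of the first motif that is present in 1.03% of all genes (0.895% of all promoters). The site lies 110 bases before the start in Nupr1 (chr7:126625562-126625591 for the stretch shown, minus strand) and also 110 bases before it in Atf3 (chr1:191183425-191183454, minus strand). It lies 193 bases before the start in Chac1 (chr2:119351038-119351067, plus strand), 139 bases before it in Fgf21 (chr7:45615611-45615640, minus strand) and 23 bases before it in Asns (chr6:7693214-7693243, minus strand). In Trib3 the site begins 15 bases into the RefSeq transcript (chr2:152344028-152344057, minus strand). In the GENCODE vM21 annotation of the same build, the sites of Chac1, Fgf21 and Trib3 fall just outside the annotated genes, that of Atf3 falls in an intron of the gene, and those of Nupr1 and Asns fall in an untranslated exon of another annotated transcript. The letters were not found in the windows of Gdf15, Cebpb and Atf5. Neither TGACGTCA, the cyclic AMP response element (1.79% of promoters), nor the endoplasmic reticulum stress element of ATF6 in its full form (0.119%) was found in any of the 11 promoters. A match describes the letters of a window and is not evidence of binding.

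The libraries were of similar depth, with totals between 20822921 and 23438463 expected counts, the fragments that RSEM assigns to genes. At this depth 3 counts, taken as the smallest detectable amount, equal 0.128 to 0.144 CPM (counts-per-million, relative to the library total). All 10 NSC markers examined were above that floor in every library. Replicates varied more in proliferation medium (biological coefficient of variation 0.117) than in differentiation medium (0.0368), and 4HBP replicate 3 in proliferation medium stood farthest from its group. Nothing in the labels says that replicates were separate cultures or animals, so the p-values measure only the spread between these libraries.

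In proliferation medium, 5 of the 8 genes that could be tested rose with 4HBP. Gdf15 was 8.14-fold, Nupr1 5.99-fold, Atf5 3.72-fold, Trib3 3.46-fold and Asns 2.59-fold the vehicle level. Chac1, Atf3 and Cebpb did not pass the test, and none of the 8 fell. The test was edgeR's quasi-likelihood test on the 6 libraries of this medium, with an adjusted p under 0.05 over 14449 genes, of which 7.43% passed, 3.74% higher and 3.69% lower. In each of the 5 genes every treated library exceeded every vehicle library, as in 16.1% of all tested genes, and groups were apart in either direction in 31.3%. The median log2 fold change was 1.58 over the 8 genes and 0.00 over all genes tested. Fgf21 was removed by the filter on low counts.

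Asparagine synthetase makes asparagine from aspartate and glutamine, and Asns is the classical gene of the amino acid response. Its level with 4HBP was 232, 322 and 318 CPM in replicates 1 to 3, and with vehicle 116, 92.6 and 120 CPM. The lowest treated library was thus well above the highest vehicle library. The log2 fold change was 1.37 ± 0.13 (SE, n = 3 and 3), with an adjusted p of 0.00237 by edgeR.

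Nupr1 was at 57.1, 93.0 and 119 CPM with 4HBP and at 15.1, 11.1 and 17.5 CPM with vehicle. All 3 treated libraries exceeded all 3 vehicle libraries, and they also differed among themselves by more than the vehicle libraries did. Its log2 fold change was 2.58 ± 0.25 (SE, n = 3 and 3; adjusted p = 0.0023, edgeR).

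Trib3 showed the widest spread of the genes that rose. With 4HBP it was at 12.8, 19.8 and 37.4 CPM, and with vehicle at 5.78, 4.33 and 9.46 CPM. The groups did not overlap, but treated replicate 3 was far above the other two. The log2 fold change was 1.79 ± 0.38 (SE, n = 3 and 3; adjusted p = 0.027, edgeR), with a 95% interval from 0.94 to 2.65. Without 4HBP replicate 2, vehicle replicate 1 or vehicle replicate 2 the adjusted p was 0.0568, 0.119 or 0.12, while the log2 fold change stayed at 1.89, 1.70 or 1.57.

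Atf5, whose product also takes part in the mitochondrial stress response, had the highest mean level of the 9 genes per transcript length in all 4 groups. Its 4HBP libraries stood at 334, 389 and 498 CPM and its vehicle libraries at 114, 89.9 and 116 CPM, with no overlap. The log2 fold change was 1.89 ± 0.14 (SE, n = 3 and 3; adjusted p = 0.000882, edgeR), with the narrowest interval beside Asns, from 1.58 to 2.21. Atf5 overlaps Nup62 and Il4i1 on the opposite strand, and 2.31% of the 40-base words of its transcripts occur in those of other genes. The strand setting of the counting is not given in the sources used here.

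Of the pair of secreted factors, Gdf15 rose and Fgf21 could not be judged. Gdf15 was low in vehicle cultures, at 1.24, 0.476 and 0.812 CPM (26, 10 and 17 counts), and reached 4.16, 7.90 and 9.21 CPM (88, 166 and 192 counts) with 4HBP. Its log2 fold change of 3.03 ± 0.37 (SE, n = 3 and 3; adjusted p = 0.00479, edgeR) was the largest of the 8 genes, with a 95% interval from 2.19 to 3.86. Fgf21 gave 1, 1 and 14 counts with 4HBP and 3, 0 and 2 counts with vehicle. Thus 14 of its 16 treated counts came from replicate 3, and the other treated libraries were at or under the floor, as was every vehicle library. In differentiation medium Fgf21 had 0 counts in all 5 libraries, each of which allows up to 3 counts, or 0.128 to 0.144 CPM.

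The remaining transcription factors and Chac1 behaved differently. Chac1 was at 22.1, 26.9 and 29.0 CPM with 4HBP and at 26.7, 18.8 and 40.7 CPM with vehicle, so the treated values lay inside the range of the vehicle values. Its log2 fold change was -0.18 ± 0.24 (SE, n = 3 and 3; adjusted p = 0.694, edgeR), and the 95% interval from -0.71 to 0.35 excludes a change as large as that of Asns. Atf3 was at 9.94, 9.57 and 13.3 CPM with 4HBP and at 8.69, 7.52 and 16.2 CPM with vehicle. The treated values of Atf3 again lay inside the vehicle range, with a log2 fold change of -0.02 ± 0.27 (SE; adjusted p = 0.976, edgeR) and a 95% interval from -0.62 to 0.59. The sign of this value turned under several other settings.

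Cebpb lay between the responders and the others. It stood at 8.14, 10.8 and 14.2 CPM with 4HBP and at 5.45, 3.95 and 8.79 CPM with vehicle, so that only vehicle replicate 3 reached into the treated range. The log2 fold change was 0.83 ± 0.28 (SE, n = 3 and 3) with an adjusted p of 0.11 by edgeR. Without vehicle replicate 3 it was 1.20 with an adjusted p of 0.032, and it also passed with DESeq2 (adjusted p = 0.0351), without the filter on low counts (0.0272) and in 1 fit of all 11 libraries (0.0368). In the annotation, Cebpb overlaps Tmem189 on the opposite strand, and 18.7% of the 40-base words of its transcript also occur in transcripts of that gene. The counts of Cebpb are less certain than those of the other genes if the counting ignored strand. The sources used here do not give that setting.

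**Figure D1:**
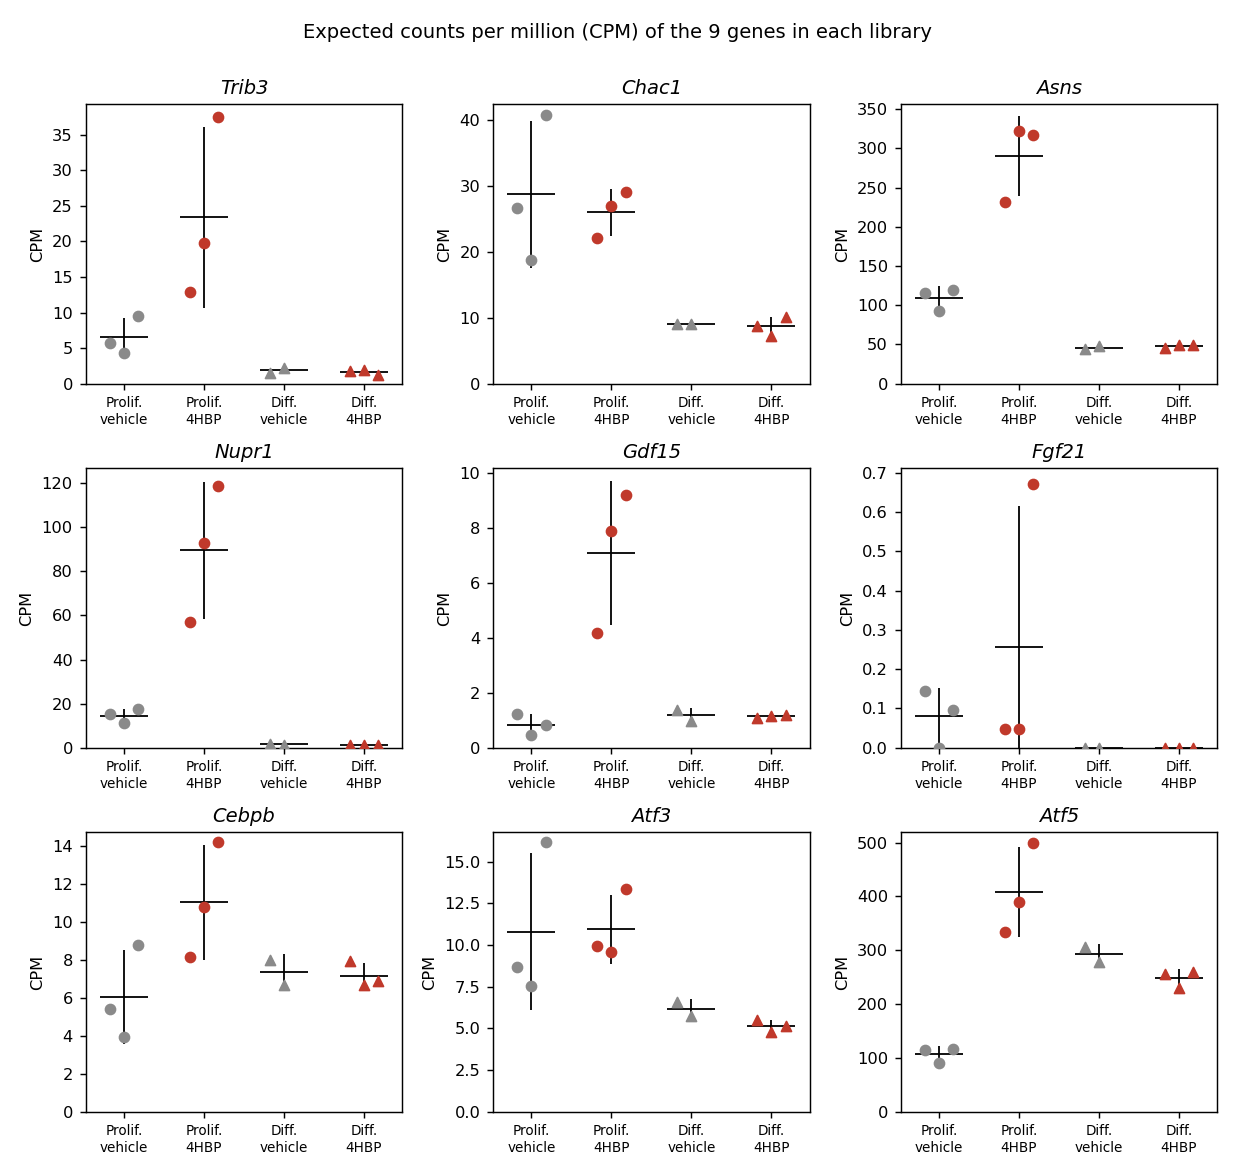
Expected counts as CPM (vertical axes from 0) of the 9 genes in each library, by medium and treatment, with replicates 1 to 3 from left to right, the mean as a horizontal line and the SD as a vertical line. With 4HBP in proliferation medium Asns, Nupr1, Trib3, Gdf15 and Atf5 lie above all vehicle libraries, whereas Chac1 and Atf3 overlap them and Fgf21 is raised in 1 library.

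Thus the TTGCATCA letters occurred in genes on both sides of the test. Nupr1 rose, Chac1 (95% interval of the log2 fold change from -0.71 to 0.35) and Atf3 (from -0.62 to 0.59) did not pass, and Fgf21 was too low to test. Asns and Trib3, each with another version of the site, rose. Of the 3 genes whose windows hold no version of it, Gdf15 and Atf5 rose. The third, Cebpb, did not pass (log2 fold change 0.83, adjusted p = 0.11, edgeR). A relation between the site and the response was not tested.

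The study's own methods used limma on log2(CPM + 1) and required p below 0.05 without adjustment together with a change of more than 0.58 in log2 units. By these thresholds Asns, Nupr1, Trib3, Atf5 and Gdf15 again passed in proliferation medium, among 2.12% of the 27295 genes tested. Adjusted over all genes, however, the limma p of the 5 genes was between 0.0705 and 0.243. On this scale the fold change of a low gene is understated, and that of Gdf15 was 2.10 on the log2 scale.

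The spread within the groups was shared by these genes. In 4HBP replicate 1, 7 of the 8 tested genes had their lowest treated value, compared with 39.8% of all tested genes, and in 4HBP replicate 3, 7 of the 8 had their highest, compared with 50%. In vehicle replicate 2 all 8 had their lowest vehicle value (36.8% of all tested genes), and in vehicle replicate 3, 7 of the 8 had their highest (33.4%). These counts describe the libraries and were not tested.

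**Figure D2:**
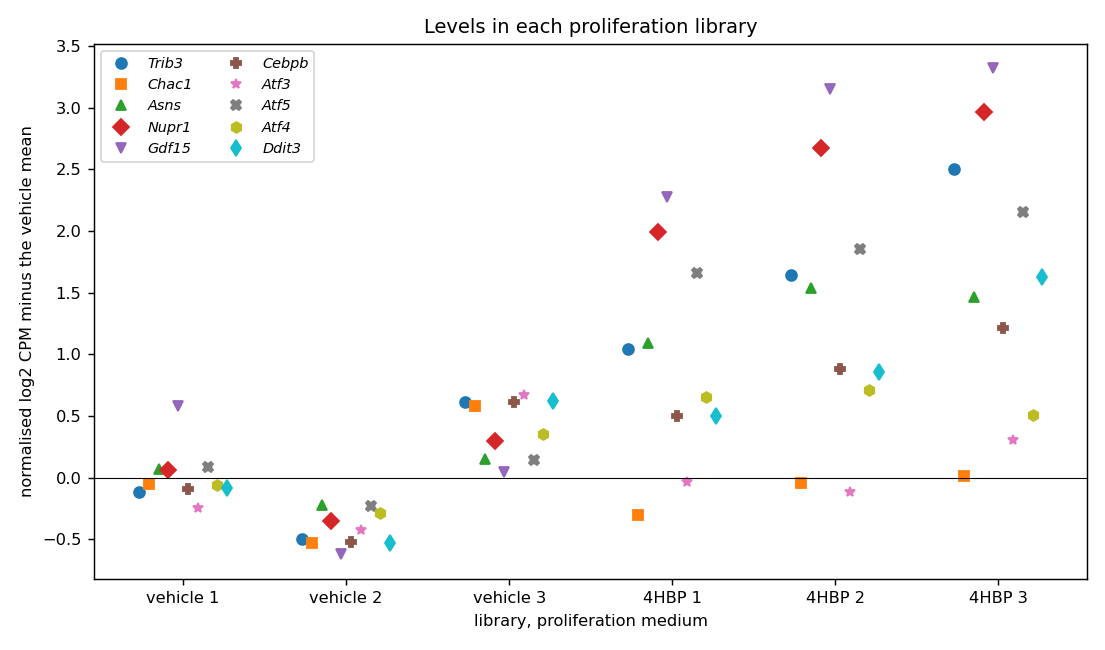
Normalised log2 CPM of the 8 tested genes, Atf4 and Ddit3 in the 6 proliferation libraries, minus the mean of the gene's vehicle libraries (vertical axis, log2 units). Vehicle replicate 2 is low and vehicle replicate 3 high for most of the genes, and the 4HBP values of Gdf15, Nupr1, Trib3, Atf5 and Asns lie at or above 1.

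Upstream of these genes, the RNA of Atf4 itself rose less. Atf4 was at 472, 501 and 451 CPM with 4HBP and at 292, 244 and 382 CPM with vehicle, a log2 fold change of 0.60 ± 0.15 (SE, n = 3 and 3; adjusted p = 0.0414, edgeR). Without 4HBP replicate 1 or 2 or vehicle replicate 1 or 2, Atf4 did not pass (adjusted p from 0.0884 to 0.16), with log2 fold changes of 0.47 to 0.59. Ddit3, which encodes CHOP, was at 20.0, 26.2 and 46.5 CPM with 4HBP and at 13.5, 9.71 and 21.7 CPM with vehicle. Its vehicle replicate 3 exceeded treated replicate 1, and the log2 fold change of 1.00 ± 0.33 had an adjusted p of 0.0991 by edgeR. Ddit3 overlaps Mars on the opposite strand. Eif2ak3, which encodes PERK, had a log2 fold change of -0.01 ± 0.09 (adjusted p = 0.973, edgeR). Among the 9 genes of the PERK, eIF2, ATF4 and CHOP axis, 1 was higher (Atf4) and 0 were lower, with a median log2 fold change of 0.11. Of all tested genes, 3.74% were higher and 3.69% lower.

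Other target genes of ATF4 moved in the same direction. Of 44 such genes 43 could be tested, of which 33 were higher, 0 were lower and 10 did not pass, against 3.74% of all tested genes higher, with a median log2 fold change of 0.76. This list and the lists below were chosen with earlier results of these data known, so their counts are no separate evidence of a response. Adm2, a peptide hormone gene, gave 32, 68 and 74 counts with 4HBP and 0, 0 and 1 with vehicle, a ratio of 174 per total count with a counting interval from 30.8 to 6901. Slc7a3, a transporter of cationic amino acids, had a log2 fold change of 3.56 ± 0.25 (adjusted p = 0.000882, edgeR). Cdsn, corneodesmosin, had one of 2.83 ± 0.38 (adjusted p = 0.00656), Cth, the enzyme that makes cysteine from cystathionine, one of 2.35 ± 0.34 (adjusted p = 0.00826) and Tnfrsf10b, a death receptor, one of 1.69 ± 0.23 (adjusted p = 0.00656). The count of 33 fell to 13 without vehicle replicate 1 and to 17 without vehicle replicate 2, and it was 24 to 35 without any other single library.

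Among the 15 tested genes of a list of genes with a C/EBP name and of ATF partner genes, 5 were higher and 1 was lower, against 3.74% and 3.69% of all tested genes. Besides Atf4, which also belongs to this list, Cebpd had a log2 fold change of 1.28 ± 0.27 (adjusted p = 0.0264, edgeR), Junb one of 1.11 ± 0.21 (adjusted p = 0.0183), Cebpz one of 0.33 ± 0.08 (adjusted p = 0.0332) and Atf6 one of 0.27 ± 0.07 (adjusted p = 0.0431). Jund fell by 0.43 on the log2 scale (SE 0.09, adjusted p = 0.0235). These 5 genes are named here after their values were seen, and of them Cebpz shares only the name of the C/EBP family. These counts depended on single libraries, with 0 genes higher without 4HBP replicate 2, vehicle replicate 1 or vehicle replicate 2, and 2 without 4HBP replicate 1.

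The list of 20 p53 target genes held 12 that were higher and 0 that were lower, against 3.74% and 3.69% of all tested genes. Of these 20 genes 4 are also in the ATF4 list (Bbc3, Pmaip1, Sesn2 and Tnfrsf10b), and of the other 16, 9 were higher. The count of 12 fell to 3 without vehicle replicate 1 and to 4 without vehicle replicate 2. For the 19 target genes of ATF6 and XBP1, the other branches of the unfolded protein response, 1 was higher (Xbp1, log2 fold change 0.50 ± 0.12, adjusted p = 0.0419, edgeR) and 1 was lower (Pdia4, -0.47 ± 0.10, adjusted p = 0.0239), with a median of -0.14.

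**Figure D3:**
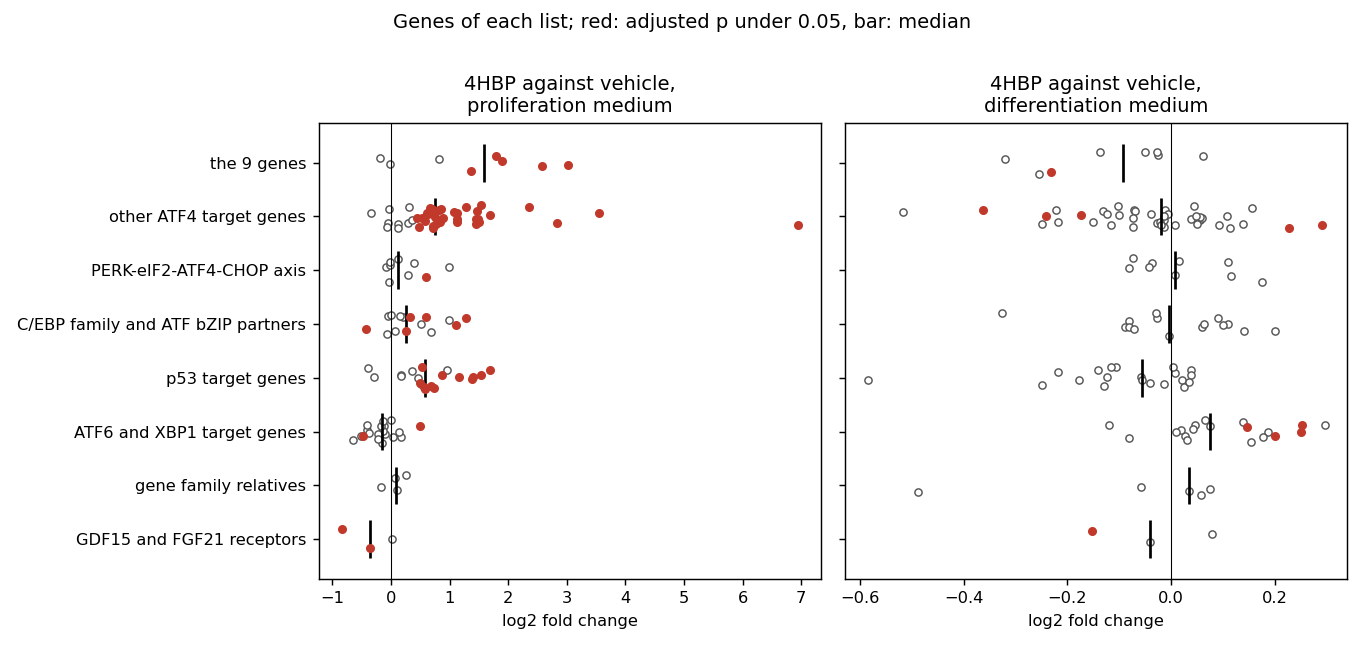
Log2 fold changes of 4HBP against vehicle in proliferation and differentiation medium (horizontal axes, different ranges) for each tested gene of 8 lists, with red points for an adjusted p under 0.05 and a bar at the median. In proliferation medium the 9 genes (8 tested) and the other ATF4 target genes have medians of 1.58 and 0.76, and in differentiation medium the same lists have medians of -0.09 and -0.02; the fitted value of Adm2, the point farthest right, depends on how its vehicle counts of 0 are treated.

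The receptors of the secreted factors were examined in the same cells. Gfral, which encodes the GDF15 receptor, had 0 counts in all 11 libraries, and Ret, which encodes its signalling partner, had 1 to 6 counts. Klb, the co-receptor that FGF21 requires, had 0 to 7 counts. The FGF receptors were expressed, with Fgfr1 at 210 to 232 CPM in proliferation medium, a log2 fold change of 0.01 ± 0.07 (adjusted p = 0.936, edgeR). Fgfr2 fell by 0.84 (SE 0.11, adjusted p = 0.00599) and Fgfr3 by 0.36 (SE 0.09, adjusted p = 0.045) on the log2 scale. None of the 4 tested relatives of the genes (Trib1, Trib2, Chac2 and Asnsd1) passed the test, and their median log2 fold change was 0.09.

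Cell type markers were examined too, and in proliferation medium only the astrocyte list held genes that passed the test for 4HBP. In proliferation medium the summed TPM (transcripts-per-million, a level per transcript length) of 7 astrocyte markers was 1670 to 2151 with 4HBP and 2456 to 3090 with vehicle, and 4 of the 7 were lower (3.69% of all tested genes). That of 7 oligodendrocyte markers was 1326 to 2073 and 1911 to 2461, that of 10 NSC markers 4287 to 4662 and 4723 to 4988, and that of 8 neuron markers 428 to 446 and 428 to 499, and none of these genes passed the test. The 8 microglia and macrophage markers summed to 1.28 to 1.93 TPM with 4HBP and 1.25 to 2.85 TPM with vehicle, with 5 to 7 of the 8 at or under the floor, and the 8 endothelial and fibroblast markers to 0.69 to 1.17 and 0.89 to 1.06 TPM. The part of these shifts in the results was not tested. In bulk RNA, fewer cells of a type and less RNA per cell cannot be told apart.

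By likeness of profile over the 11 libraries (normalised log2 CPM centred within each medium, compared by the root mean square difference), Asns was nearest to Wars, a tryptophanyl-tRNA synthetase gene, at 0.081, then to Cdkn1a, the cell cycle inhibitor p21, at 0.119 and Pycr1, an enzyme of proline synthesis, at 0.129. Nupr1 was nearest to Cyb5r1 (0.192), Gdf15 (0.259) and Slc4a10 (0.263), and Gdf15 to Nupr1 (0.259), Cntnap3 (0.285) and Fbln5 (0.286). Nupr1 and Gdf15 were thus in each other's nearest 3. Atf5 was nearest to Grb10 (0.173), Tnfrsf10b (0.177) and Eif4ebp1 (0.183). The nearest to Trib3 were Lama1 (0.243), Myof (0.251) and Fbln7 (0.259). All of these profiles share the same libraries, and the likeness was not tested.

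In differentiation medium, 1 of the 8 tested genes passed the test for 4HBP. Of these 8 genes, 0 were higher and only Atf5 was lower, against 2.55% of 15484 genes called in either direction with 1.26% higher and 1.29% lower. The median log2 fold change was -0.09 over the 8 genes. By limma with the study's thresholds, none of the 9 genes passed, among 0.180% of all genes, although 3129 of the 27295 genes had an unadjusted p under 0.05. Atf5 was among these, but its fold change was below the threshold.

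Asns stood at 45.8, 48.7 and 49.1 CPM with 4HBP and at 44.1 and 47.9 CPM with vehicle. Its 95% interval, from -0.06 to 0.18 on the log2 scale around 0.06, was narrow and far from the value in proliferation medium. Nupr1 was at 1.20, 1.25 and 1.3 CPM with 4HBP and at 1.87 and 1.28 CPM with vehicle, and vehicle replicate 2 lay within the treated range. Gdf15, at 1.07, 1.16 and 1.20 CPM against 1.37 and 0.981 CPM, also overlapped, with all treated values inside the vehicle range.

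Trib3 was low in this medium and its groups overlapped, with 1.83, 1.98 and 1.3 CPM under 4HBP and 1.51 and 2.26 CPM under vehicle. Its log2 fold change was -0.14 with a 95% interval from -0.73 to 0.46, and it rests on 27 to 53 counts a library. The intervals of Nupr1 (-0.94 to 0.30) and Gdf15 (-0.70 to 0.65) were as wide, and those of Chac1 (-0.33 to 0.23) and Cebpb (-0.31 to 0.25) were narrower.

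Atf5 was at 256, 229 and 259 CPM with 4HBP and at 306 and 279 CPM with vehicle, and thus every treated library was below both vehicle libraries. It fell by 0.23 on the log2 scale (SE 0.05, n = 3 and 2; adjusted p = 0.0207, edgeR), a direction opposite to that in proliferation medium. The adjusted p was 0.069 without 4HBP replicate 2 and 0.351 without vehicle replicate 1, and when all 11 libraries were fitted together no gene passed in this medium. Treated and vehicle values of Atf3 did not overlap either, with 5.50, 4.79 and 5.14 CPM against 6.57 and 5.76 CPM, but its log2 fold change of -0.25 ± 0.14 had an adjusted p of 0.401 by edgeR. Such a lack of overlap was seen in 32.9% of all tested genes.

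Atf4 (log2 fold change 0.11 ± 0.04, adjusted p = 0.162, edgeR), Ddit3 (-0.08 ± 0.11, adjusted p = 0.777) and Eif2ak3 (0.01 ± 0.05, adjusted p = 0.964) did not pass in differentiation medium. Of 41 tested ATF4 target genes, 2 were higher and 3 were lower, against 1.26% and 1.29% of all tested genes. Pck2, a mitochondrial enzyme of gluconeogenesis, fell by 0.36 on the log2 scale (SE 0.09, adjusted p = 0.0375), and Vegfa, a growth factor of blood vessels, by 0.24 (SE 0.04, adjusted p = 0.00705), whereas Slc7a11, the cystine transporter, was higher by 0.29 ± 0.06 (adjusted p = 0.02). Slc7a5, a transporter of large neutral amino acids, fell by 0.17 (SE 0.04, adjusted p = 0.0344), and Slc6a9, a glycine transporter, was higher by 0.23 ± 0.05 (adjusted p = 0.0321). Among the receptor genes, Fgfr1 fell by 0.15 on the log2 scale (SE 0.03, adjusted p = 0.0243). Of the 19 ATF6 and XBP1 target genes, 4 were higher and 0 lower, namely the chaperone gene Hyou1 (0.25 ± 0.04, adjusted p = 0.00442), Xbp1 (0.25 ± 0.06, adjusted p = 0.0321), Hspa5, which encodes the chaperone BiP (0.20 ± 0.03, adjusted p = 0.00246), and Calr, which encodes calreticulin (0.15 ± 0.03, adjusted p = 0.0138). None of these genes passed in this medium when all 11 libraries were fitted together. Single libraries were not left out for the list counts of this medium.

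The difference between the effects of 4HBP in the 2 media was tested as an interaction in a fit of all 11 libraries. That fit, also used for the comparisons between media below, shares 1 estimate of the spread (biological coefficient of variation 0.0907), which differed between the media. The interaction passed for 4 of the 8 genes, against 4.49% of 15920 genes (2.01% with a larger and 2.48% with a smaller value in proliferation medium). In all 4 the effect was larger in proliferation medium. The difference was 3.04 ± 0.53 on the log2 scale for Gdf15 (SE; adjusted p = 0.00942, edgeR), 2.89 ± 0.56 for Nupr1 (adjusted p = 0.0141), 2.12 ± 0.18 for Atf5 (adjusted p = 0.000119) and 1.3 ± 0.17 for Asns (adjusted p = 0.0025). With limma voom and a variance for each medium, 4 of the 8 genes also passed, and the adjusted p of Nupr1 was 0.0157. For Trib3 the edgeR difference was 1.92 ± 0.64 with an adjusted p of 0.117, whereas a fit blocked on replicate number gave 2.10 with an adjusted p of 0.0394, so its call depended on the fit. The differences for Cebpb (0.85 ± 0.37, adjusted p = 0.224), Atf3 (0.23 ± 0.37, adjusted p = 0.78) and Chac1 (-0.14 ± 0.34, adjusted p = 0.871) did not pass either.

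Single libraries bear on this result. Without vehicle replicate 1 of differentiation medium, 2 of the 8 genes passed, with Gdf15 at a difference of 2.79 (adjusted p = 0.0796) and Nupr1 at 2.60 (adjusted p = 0.138), and the remaining vehicle library was then assumed to vary like those of the other groups. Without vehicle replicate 2 of that medium, the difference of Nupr1 was 3.14 (adjusted p = 0.0579), and with limma voom it was 2.83 (adjusted p = 0.117). Trib3 passed without 4HBP replicate 1 (adjusted p = 0.0353) or vehicle replicate 3 (0.0482) of proliferation medium, and Cebpb without the latter (0.031). Without the filter on low counts both passed in edgeR (adjusted p = 3.55e-10 and 0.00547). Their differences of 1.91 and 0.84 were then almost unchanged, while the SE was 0.27 and 0.23 in place of 0.64 and 0.37. These 2 calls thus rest on a smaller estimate of the spread.

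Atf4 (0.48 ± 0.18, adjusted p = 0.165, edgeR), Ddit3 (1.07 ± 0.43, adjusted p = 0.191) and Eif2ak3 (-0.02 ± 0.10, adjusted p = 0.94) did not pass this test, with 95% intervals from 0.09 to 0.88, 0.13 to 2.01 and -0.24 to 0.20. Of 43 ATF4 target genes, 26 had a larger effect in proliferation medium (2.01% of all tested genes) and 0 a smaller one (2.48%). They included Slc7a3 (4.07 ± 0.44, adjusted p = 0.000745), Cth (2.45 ± 0.42, adjusted p = 0.00811), Pck2 (1.81 ± 0.23, adjusted p = 0.00185), the cell death gene Pmaip1 (1.78 ± 0.31, adjusted p = 0.00942) and the glutamine transporter gene Slc1a5 (1.70 ± 0.27, adjusted p = 0.00633). Single libraries were not left out for this list count, and the list was chosen with earlier results of these data known.

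**Figure D4:**
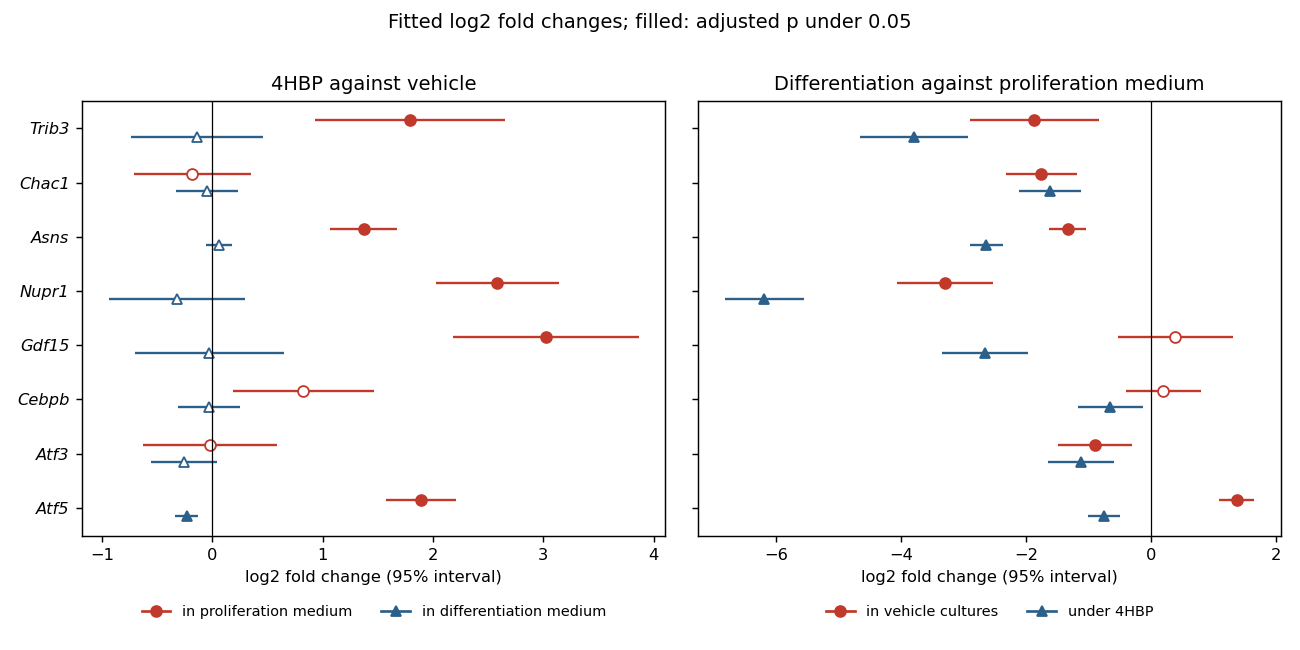
Fitted log2 fold changes (points) with 95% intervals (lines) of the 8 tested genes, for 4HBP against vehicle in each medium on the left and for differentiation against proliferation medium in each treatment on the right. Filled points have an adjusted p under 0.05, and on the left the 5 filled points right of 0 all belong to proliferation medium.

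The media were compared within each treatment. In vehicle cultures, 5 of the 8 tested genes were lower in differentiation than in proliferation medium and 1 was higher, while 61.4% of all 15920 genes were called, with 30.8% higher and 30.6% lower in differentiation medium, so that the 6 called genes are a share near that of all genes. Nupr1 was 9.83-fold lower (log2 fold change -3.30 ± 0.36, adjusted p = 4.26e-06, edgeR), Trib3 3.65-fold lower (-1.87 ± 0.47, adjusted p = 0.00406), Chac1 3.39-fold lower (-1.76 ± 0.26, adjusted p = 7.27e-05), Asns 2.53-fold lower (-1.34 ± 0.14, adjusted p = 2.32e-06) and Atf3 1.86-fold lower (-0.90 ± 0.27, adjusted p = 0.0121). Chac1 and Atf3 thus differed between the media although they did not pass for 4HBP. At 8.72, 7.25 and 10.1 CPM with 4HBP and 8.99 and 9.0 CPM with vehicle, Chac1 in differentiation medium lay below every proliferation library. Among all tested genes, 37.1% had both vehicle libraries of differentiation medium below all those of proliferation medium.

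Atf5 went the other way. It was 2.58-fold higher in differentiation medium with vehicle (log2 fold change 1.37 ± 0.13, adjusted p = 1.51e-06, edgeR), and its 306 and 279 CPM there lay between the vehicle (89.9 to 116 CPM) and the 4HBP libraries (334 to 498 CPM) of proliferation medium. Gdf15 (0.39 ± 0.43, adjusted p = 0.451) and Cebpb (0.19 ± 0.28, adjusted p = 0.57) did not pass. The call of Atf3 was lost without differentiation vehicle replicate 2 (adjusted p = 0.0866).

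In the same contrast Atf4 was lower by 0.90 on the log2 scale (SE 0.14, adjusted p = 0.000112, edgeR), Ddit3 had a value of -0.20 ± 0.33 (adjusted p = 0.611) and Eif2ak3 was higher by 0.26 ± 0.08 (adjusted p = 0.00955). Of the 43 ATF4 target genes, 11 were higher and 19 lower, against 30.8% and 30.6% of all tested genes. The largest changes of the pathway lists were in Cdsn, with 116 to 277 counts in proliferation and 2 and 3 counts in differentiation medium, Pltp (2.83 ± 0.24, adjusted p = 4.56e-07), which encodes a phospholipid transfer protein, Pmaip1 (2.35 ± 0.24, adjusted p = 2.4e-06), the Nupr1 relative Nupr1l (2.2 ± 0.40, adjusted p = 0.00036) and Cth (2.00 ± 0.33, adjusted p = 0.000161). Nupr1 and Nupr1l thus moved in opposite directions.

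Under 4HBP, all 8 tested genes were lower in differentiation than in proliferation medium, while 67.2% of all genes were called, 33.3% higher and 33.8% lower. Nupr1 was 73.0-fold lower (log2 fold change -6.19 ± 0.29, adjusted p = 1.72e-09, edgeR), Trib3 13.8-fold, Gdf15 6.31-fold and Asns 6.22-fold. Chac1 was 3.08-fold, Atf3 2.18-fold, Atf5 1.68-fold and Cebpb 1.57-fold lower, the last with an adjusted p of 0.0283 that rose to as much as 0.095 when single libraries were left out (4HBP replicates 2 or 3 of either medium). Fgf21 passed here too when no filter was applied (adjusted p = 0.00318), with 16 counts in proliferation medium, 14 of them from 1 library, against 0. This contrast shares its 4HBP libraries with the comparisons above, so it is no separate evidence for them. Atf4 fell by 1.38 (SE 0.12, adjusted p = 5.85e-07) and Ddit3 by 1.28 (SE 0.29, adjusted p = 0.00149) on the log2 scale, and Eif2ak3 was higher by 0.28 ± 0.07 (adjusted p = 0.00258).

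Of the 43 ATF4 target genes, 33 were lower and 5 higher (Map1lc3b, Pmaip1, Bbc3, Ddit4 and Gpt2) in that contrast. Of all tested genes, 33.8% were lower and 33.3% higher. Adm2 had 32 to 74 counts in proliferation and 0 to 1 counts in differentiation medium, a ratio of 183 per total count with a counting interval from 32.5 to 7284, and Cdsn had 725 to 1908 and 1 to 9 counts. Slc7a3 fell by 5.06 (SE 0.25, adjusted p = 2.25e-09, edgeR), Junb by 2.97 (SE 0.20, adjusted p = 4.26e-08) and Shmt2, the mitochondrial serine hydroxymethyltransferase, by 2.61 (SE 0.07, adjusted p = 2.34e-11) on the log2 scale.

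Markers of several cell types also differed between the media. In vehicle cultures 61.4% of all tested genes were called, 30.8% higher and 30.6% lower in differentiation medium, and under 4HBP 33.3% were higher. The summed TPM of the 7 oligodendrocyte markers was 1326 to 2461 in proliferation and 6864 to 7339 in differentiation medium, with 7 of the 7 higher in both treatments. That of the 7 astrocyte markers was 1670 to 3090 and 3803 to 4163, and in vehicle cultures 5 of the 7 were higher and 2 lower. The 10 NSC markers summed to 4287 to 4988 and 2498 to 2623 TPM, with 2 higher and 7 lower in vehicle cultures. For the 8 neuron markers the sums overlapped, at 428 to 499 and 464 to 492 TPM. In vehicle cultures 4 of them were higher and 1 lower, a share near that of all genes. The 8 microglia and macrophage markers summed to 1.25 to 2.85 and 0.86 to 1.98 TPM. The 8 endothelial and fibroblast markers summed to 0.69 to 1.17 TPM and 9.88 to 11.1 TPM. The part of these shifts in the medium contrasts was not tested.

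Levels were compared between the 9 genes by TPM. In proliferation medium with vehicle, Atf5 (88.0 ± 12.4 TPM, SD, n = 3) and Asns (81.8 ± 11.6 TPM) led and their ranges overlapped. They were followed by Nupr1 (31.0 ± 7.00 TPM) and Chac1 (26.6 ± 10.1 TPM), which overlapped too, and by Atf3 (15.4 ± 5.31 TPM). Cebpb (6.18 ± 2.49 TPM) and Trib3 (6.12 ± 2.36 TPM) did not differ beyond their spread, and Gdf15 (0.843 ± 0.387 TPM) and Fgf21 (0.143 ± 0.132 TPM) came last.

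With 4HBP in the same medium, Atf5 rose to 337 ± 76.3 TPM (SD, n = 3) and stood apart from Asns at 216 ± 41.1 TPM. Nupr1, at 196 ± 70.2 TPM, now overlapped Asns and stood apart from Chac1 (24.2 ± 3.79 TPM). Trib3 (20.2 ± 12.7 TPM), Atf3 (18.4 ± 3.47 TPM), Cebpb (11.3 ± 3.36 TPM) and Gdf15 (7.48 ± 2.89 TPM) followed, each overlapping the next, and Fgf21 was at 0.460 ± 0.658 TPM.

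In differentiation medium Atf5 was far above the rest, at 302 ± 18.8 TPM (SD, n = 2) with vehicle and 254 ± 15.7 TPM (n = 3) with 4HBP. Asns was second at 42.8 ± 2.78 and 44.8 ± 1.63 TPM. Chac1, Cebpb and Atf3 lay between 5.16 and 11.5 TPM. Nupr1, which exceeded Chac1 in mean level in proliferation medium, was below Chac1, Cebpb and Atf3 here, at 4.38 ± 1.46 and 3.19 ± 0.175 TPM, above Trib3 and Gdf15, whose ranges overlapped in both treatments.

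The files also give the mean length of a gene's transcripts, weighted by their estimated shares, which moves when the mix of isoforms moves. For Atf3, with 3 transcripts, it was 869 to 1198 bases in the 6 proliferation libraries (1059 ± 106, SD) and 1424 to 1808 bases in the 5 differentiation libraries (1600 ± 171, SD). For Gdf15, with 2 transcripts, it was 1465 to 1545 bases and 1380 to 1432 bases. Both differed between the media by a two-sided exact permutation test over the 11 libraries (p = 0.00216, the smallest that 462 arrangements allow, 0.00649 after adjustment over the 6 genes with a varying length), and the lengths of Trib3, Asns, Nupr1 and Atf5 overlapped. Of 12315 tested genes with a varying length, 20.9% had no overlap between the media. The length of Gdf15 rests on 23 to 30 counts a library in differentiation medium and on 10 to 26 in the vehicle libraries of proliferation medium. Within proliferation medium it was 1465, 1479 and 1465 bases with 4HBP and 1534, 1510 and 1545 bases with vehicle. The permutation test took no account of treatment. These values were looked at after the other results were known, and their estimates depend on how RSEM shares out reads between isoforms.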

How the data were processed

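Total RNA was sequenced by the authors as stranded mRNA libraries. Per the labels and the study's methods, reads were trimmed with cutadapt and quantified by RSEM 1.3.0 with Bowtie2 2.2.9 against mm10 (GRCm38) and GENCODE vM17. The authors deposited, for each library, unnormalised expected counts, TPM, FPKM (not analysed) and the mean transcript length of every gene, an other value in bases.

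Expected counts were rounded, filtered (filterByExpr), scaled by TMM factors and tested in edgeR 4.0.16 (quasi-likelihood, glmQLFit and glmQLFTest; Benjamini-Hochberg adjusted p under 0.05) within each medium, and over all 11 libraries for the interaction and the media. The second test was limma 3.58.1 (R 4.3.3) on log2(CPM + 1). Alternatives were DESeq2 1.42.0, limma voom, no filter, library totals, a replicate block, 1 fit of all libraries, a pseudocount of 0.1 and leaving out each library. The last was added for some list counts and Atf4, in proliferation medium only, after the data were seen. Fits were tested on simulated counts with known 2-fold and 4-fold changes. The edgeR test recovered 72.4% and 99.0% of them in proliferation medium, 80.8% and 95.8% in differentiation medium and 63.3% and 77.1% for the interaction. Intervals, ratios and floors of counts cover counting error only. Symbols and positions came from GENCODE vM21, and promoters from RefSeq.

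The genes and lists were chosen with earlier results of these data known. Named are the 9 genes, Atf4, Ddit3 and Eif2ak3, the 5 pathway list genes with the largest absolute change among those called in each comparison, and the 3 genes with the nearest profile. Others are named only as counts of 5 or fewer.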

Additional observations from a re-analysis of the deposited data

Results flagged for a closer look

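The effect of 4HBP differed between the media, by the interaction term of edgeR over the 11 libraries, in Asns (difference 1.3 on the log2 scale, adjusted p = 0.0025), Nupr1 (2.89, adjusted p = 0.0141), Gdf15 (3.04, adjusted p = 0.00942) and Atf5 (2.12, adjusted p = 0.000119). The test no longer passed for Nupr1 without either differentiation vehicle library (adjusted p = 0.138 and 0.0579) and with limma voom (0.117), nor for Gdf15 without differentiation vehicle replicate 1 (0.0796).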

How the results depend on the processing

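Among the alternative values of the single genes, 461 kept their direction and their side of the threshold, 10 newly passed it, 15 no longer passed and 18 changed sign. Atf3 in proliferation medium, never called, changed sign with library totals (0.019), limma voom (0.058) and the block (0.043), and ranged from -0.22 to 0.40 when 1 library was left out. Other genes that changed sign when 1 library was left out, none of them called, were Chac1 in proliferation medium (-0.41 to 0.17), in differentiation medium (-0.17 to 0.067) and in the interaction (-0.37 to 0.20), Trib3 (-0.40 to 0.20), Gdf15 (-0.24 to 0.22) and Cebpb (-0.15 to 0.10) in differentiation medium, and Cebpb between media in vehicle cultures (-0.039 to 0.56).

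Genes called in proliferation medium numbered 1074, and 1623 with DESeq2, 2668 with all 11 libraries in 1 fit and 107 to 1429 when 1 library was left out (107 without vehicle replicate 1, 137 without vehicle replicate 2, 290 without 4HBP replicate 2 and 705 without 4HBP replicate 1); of the 9 genes, 4 to 6 were called. In differentiation medium the 395 became 778 without a filter, 0 with 11 libraries in 1 fit (where 0 of the 9 genes passed) and 77 to 288 with 1 library left out (0 to 1 of the 9 genes). The interaction count of 715 was 1078 with DESeq2, 1616 without a filter and 124 to 1100 with 1 library left out (2 to 6 of the 9 genes; Nupr1 also missed with limma voom, adjusted p = 0.117). With a pseudocount of 0.1 the limma counts of 578 and 49 became 1207 and 682, and with 1 library left out that of differentiation medium was 45 to 93. The cause of these shifts was not tested.

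Replicate numbers were shared between groups, but the deviations of same-numbered libraries correlated at only -0.061 to 0.018, so they were not treated as pairs. With the number as a replicate block, 534 and 745 genes were called in proliferation and differentiation medium, Trib3 passed in the interaction (adjusted p = 0.0394), and the signs of Trib3 in differentiation medium (0.032) and Chac1 in the interaction (0.082) turned. Depth limits Fgf21, which had 3 counts or fewer in 10 of the 11 libraries.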
